A study of Mus musculus with 6 samples.

Results

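The receptors for interleukin 1 (IL-1), IL-18 and IL-33 and the proteins that carry their signal into the cell were followed in mouse Th17 cultures labelled knockout or WT for pyruvate dehydrogenase (PDH), the enzyme complex through which pyruvate enters the citric acid cycle. The family was taken as a list of 10 genes by symbol: Il1r1, Il1r2, Il1rl1, Il1rap, Il18r1, Il18rap, Sigirr, Myd88, Irak1 and Irak4. All 10 were present among the 15452 genes with counts, and all 10 passed the filter on low counts. The comparison is of 3 libraries labelled PDH knockout, from PDHfl/fl mice with CD4 Cre, with 3 libraries labelled WT, from PDHfl/fl mice without Cre, though the titles spell the locus PHD. CD4 Cre acts in T-lineage cells from the thymus onward, before culture, and since every knockout library and no WT library had it, an effect of Cre itself cannot be told apart from that of the deletion. Spleens and lymph nodes gave naive CD4+ T cells by bead sorting, and these grew for 3 days on plate-bound anti-CD3 at 5 µg/mL with anti-CD28 at 1 µg/mL, IL-6 at 30 ng/mL, TGFβ at 2 ng/mL and anti-IFNγ at 5 µg/mL. No IL-1, IL-18, IL-33 or IL-23 is named in that mix. The labels give neither age, sex nor strain, and do not say whether the replicates came from separate mice, so p-values speak only of the spread among these libraries, which may be technical.

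IL-1 family receptors work in pairs. A chain that binds the cytokine recruits an accessory chain, and their cytoplasmic TIR domains then gather the adaptor MyD88 and the kinases IRAK4 and IRAK1, which pass the signal to TRAF6, the kinase TAK1 and NF-κB. In mouse T cells IL-1 promotes the Th17 programme, IL-18 acts with IL-12 on Th1 cells, and IL-33 acts on Th2 and regulatory T cells through ST2, the product of Il1rl1.

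The family did not move as one. In PDH knockout cells 3 genes rose (Il18rap, Il1rl1 and Il1rap), 3 fell (Il1r1, Il18r1 and Irak4) and 4 were not called (Il1r2, Sigirr, Myd88 and Irak1). Calls were made at an adjusted p under 0.05 by edgeR's quasi-likelihood test over all 15361 tested genes. That test called 23.1% of all tested genes higher and 24.5% lower, 47.6% in all, so 6 of 10 is near the background. The median log2 fold change of the 10 genes was 0.13, against 0.01 over all tested genes. Values did not overlap between the groups in 8 of 10 family genes, against 58.2% of all tested genes. With upper-quartile scaling, which moved the median of all genes to 0.09, 6 family genes were called higher, because Sigirr, Myd88 and Irak1 joined the 3. Levels are CPM, the count of a gene relative to the TMM-scaled total of its library, and changes are log2 fold changes of knockout over WT with their SE.

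**Figure D1:**
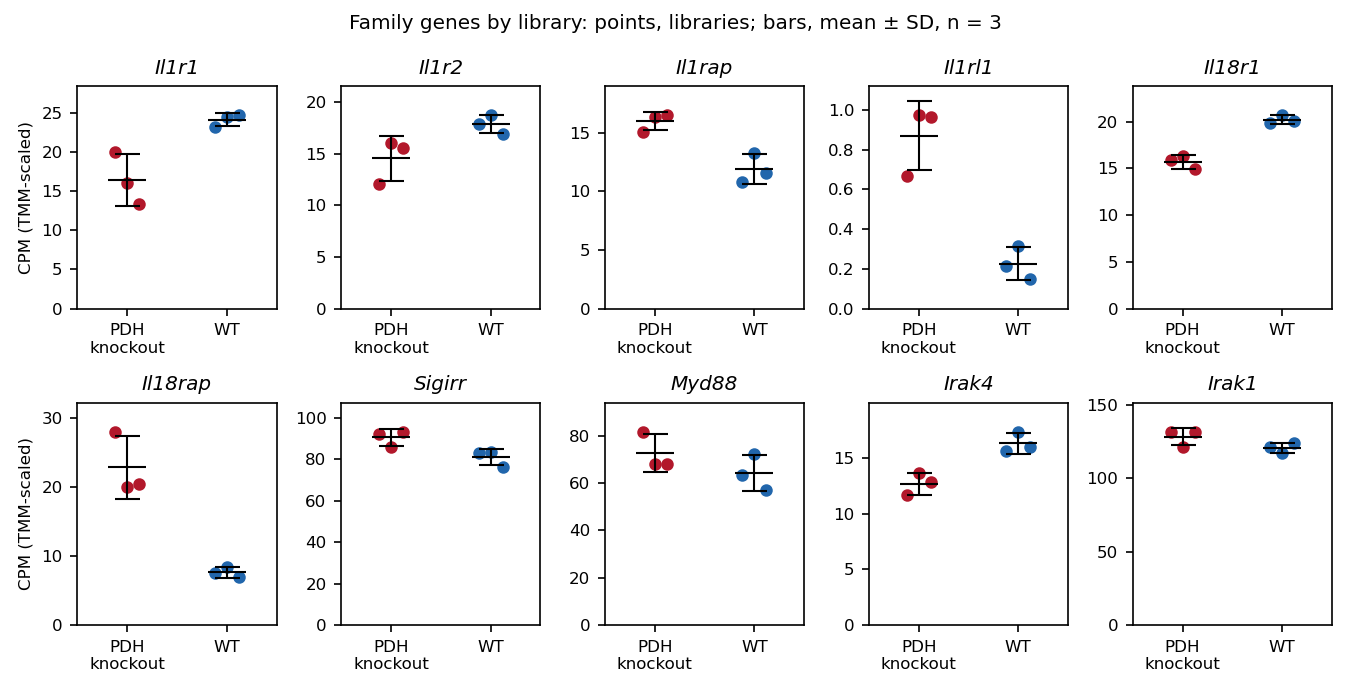
Level of each family gene (y axis, TMM-scaled CPM from 0) in the PDH knockout and WT libraries (x axis); points are libraries and bars the mean ± SD, n = 3 each. Il18rap lay between 20.04 and 28.1 CPM in knockout libraries, all above the WT libraries, while Myd88 and Irak1 overlapped.

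Total counts were 33802154 to 39398842 in the knockout libraries and 37556787 to 40407124 in the WT libraries. Of the PDH genes read as a check of the labels, Pdha1 was at 193 ± 6.33 CPM in knockout and 248 ± 10.2 CPM in WT (SD, n = 3 each), log2 fold change -0.36, Dlat at -0.68 and Pdhb at -0.14 (adjusted p = 0.000871, 3.55e-05 and 0.063, edgeR). Which PDH gene is floxed is not named in the labels, so a deleted exon could not be looked for, and the loss of PDH rests on the labels. Summed T cell markers (Cd3d, Cd3e, Cd3g, Cd4 and Trac) were at 836 to 931 CPM in knockout and 1266 to 1303 CPM in WT, with 4 of 5 lower and Cd3e not called. Of the Th17 genes, the cytokine Il17a was at 55.7 to 71.5 CPM in knockout and 142 to 157 CPM in WT by library totals. Il17a, Il17f and Il23r were lower, by -1.31, -1.19 and -2.28 on the log2 scale, and Ccr6 was higher, by 0.83 (adjusted p = 1.02e-05, 0.00341, 3.55e-05 and 0.000132, edgeR). Summed B cell markers differed within the groups, at 65.5, 144 and 225 CPM in knockout replicates 1 to 3 and 66.5, 128 and 54.2 CPM in WT replicates 1 to 3. In bulk RNA fewer cells of a type and less RNA per cell cannot be told apart.

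The IL-1 receptor was read first. Il1r1 (ENSMUSG00000026072.13) encodes the chain that binds IL-1 and signals. Its levels were 19.98, 15.9 and 13.3 CPM in knockout, against 23.1, 24.5 and 24.7 CPM in the WT libraries. Every knockout library lay below every WT library, and the knockout libraries spread more widely. The change was -0.55 ± 0.13 (adjusted p = 0.0077, edgeR), a level 0.682 times that of WT. Il1r1 and the summed B cell markers ran in opposite order in the knockout libraries, but not in WT. There replicate 2, with the highest marker sum, had Il1r1 at 24.5 CPM, between the other WT libraries. The part of other cells in the change was not tested. Without the 3 libraries in which those markers were raised, the change in Il1r1 shrank to -0.26. There knockout replicate 1, the highest knockout library for Il1r1, stands for its whole group and is assumed to vary like WT. Leaving out any single library kept the call, with changes from -0.72 to -0.42.

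Il1r2 (ENSMUSG00000026073.14) encodes the decoy receptor, which binds IL-1 but has no TIR domain and does not signal. It was at 12.1, 16.0 and 15.6 CPM in knockout and at 17.9, 18.8 and 17.0 CPM in WT. The groups did not overlap, yet the change of -0.30 ± 0.11 missed the threshold (adjusted p = 0.0559, edgeR). Without knockout replicate 2, Il1r2 passed at -0.38 (adjusted p = 0.0424, edgeR). Without the 3 libraries with raised B cell markers it was at -0.52. There knockout replicate 1, its lowest library, stands for the whole knockout group.

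Within each library the decoy can be set against the signalling receptor free of any scaling between libraries. The ratio of Il1r2 to Il1r1 counts was 0.606, 1.01 and 1.17 in knockout and 0.775, 0.768 and 0.688 in WT. Knockout replicate 1 lay below all WT libraries and the other knockout libraries above them. The mean log2 ratio was higher by 0.27 in knockout (two-sided exact permutation test over 20 assignments, p = 0.4), and by 0.55 without knockout replicate 1. The smallest p this test allows is 0.1, so it could not pass 0.05.

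Il1rap (ENSMUSG00000022514.15, chromosome 16) encodes the accessory chain that IL-1R1 and ST2 share. It was at 15.1, 16.4 and 16.5 CPM in knockout and at 10.8, 13.3 and 11.6 CPM in WT, without overlap. The rise of 0.43 ± 0.10 (adjusted p = 0.00707, edgeR) no longer passed when tested against a fold change of 1.2 (adjusted p = 0.0738). The same gene makes a soluble form, and counts over the whole gene do not separate it from the membrane form. So the binding chain of the IL-1 receptor fell while its partner chain rose.

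The IL-18 receptor showed the same kind of split, with the accessory chain moving most. The ST2 pair did not, since Il1rl1 and Il1rap both rose (1.93 and 0.43). Il18rap (ENSMUSG00000026068.12) encodes the accessory chain, which IL-18 needs to signal. It stood at 28.1, 20.04 and 20.5 CPM in knockout libraries and at 7.48, 8.49 and 6.94 CPM in WT libraries. All knockout libraries lay far above all WT libraries, and knockout replicate 1 was the highest. The rise was 1.58 ± 0.15 (adjusted p = 5.17e-05, edgeR), 2.99-fold, and it stayed between 1.40 and 1.66 when any single library was left out. Il18r1 (ENSMUSG00000026070.16) encodes the chain that binds IL-18. It was at 15.9, 16.4 and 14.9 CPM in knockout and at 19.9, 20.7 and 20.1 CPM in WT, each group within a narrow range. The change was -0.36 ± 0.08 (adjusted p = 0.00445, edgeR). It was not called against a fold change of 1.2 (adjusted p = 0.117), nor without the 3 libraries with raised B cell markers (-0.33, adjusted p = 0.0754), which leaves 1 knockout library.

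Set against each other within a library, the count of Il18rap was 1.76, 1.22 and 1.37 times that of Il18r1 in knockout and 0.377, 0.41 and 0.345 times in WT. The accessory chain gave more counts than the binding chain in every knockout library and fewer in every WT library. Its annotated exons are longer, however, at 6.752 kb against 4.817 kb. Per kb, Il18rap and Il18r1 stood at 4.16 and 3.30 CPM in knockout replicate 1. In replicate 2 they were at 2.97 and 3.40, and in replicate 3 at 3.03 and 3.09. Length does not alter the difference between the groups. The mean log2 ratio was 0.52 ± 0.27 in knockout and -1.41 ± 0.12 in WT (SD, n = 3 each), a difference of 1.93 that stayed between 1.78 and 2.05 with any library left out. The exact two-sided permutation test gave p = 0.1, the smallest that 20 assignments allow, and 0.15 after Benjamini-Hochberg adjustment over the 3 ratios tried.

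NK cells are another cell type that carries both chains. Of the 6 NK markers listed, Klre1, Eomes and Klrd1 had counts and Ncr1, Klrb1c and Gzma were not analysed here. Their sum was 7.34 to 8.67 CPM in knockout and 10.02 to 11.97 CPM in WT, and the part of NK cells in the Il18rap result was not tested. Klrd1 fell by 1.01 on the log2 scale (adjusted p = 0.00371, edgeR), and Klre1 and Eomes were not called. Without the 3 libraries with raised B cell markers, which leaves 1 knockout library, the change in Klrd1 shrank to -0.65.

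**Figure D2:**
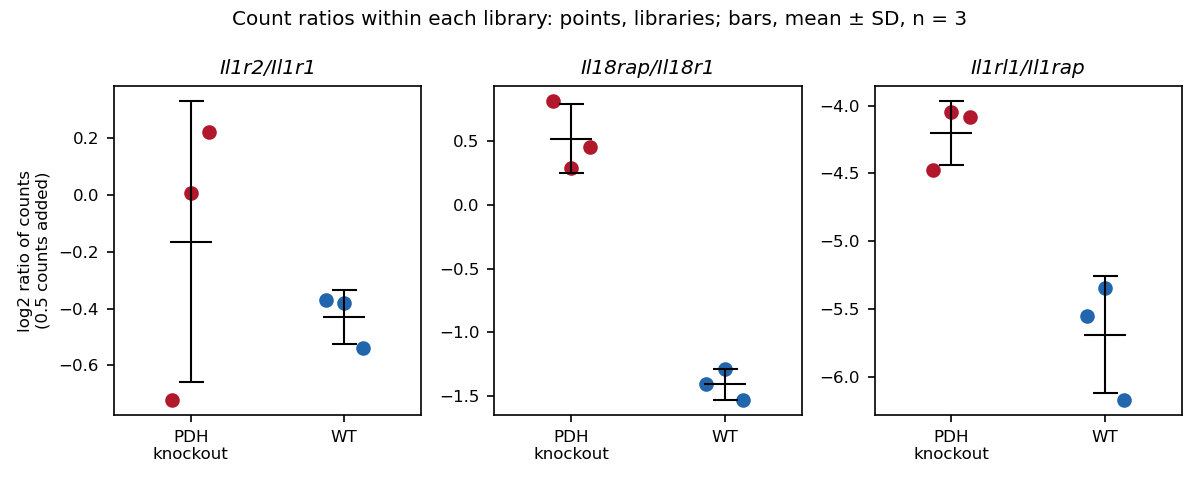
Log2 ratio of the counts of 2 family genes within each library (y axis, 0.5 counts added) in PDH knockout and WT (x axis); points are libraries and bars the mean ± SD, n = 3 each. Il18rap/Il18r1 and Il1rl1/Il1rap were higher in every knockout library than in any WT library, and Il1r2/Il1r1 overlapped.

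Il1rl1 (ENSMUSG00000026069.16) encodes ST2, the receptor for IL-33, and had the lowest level of the family. It had 27, 34 and 34 counts in the knockout libraries and 8, 12 and 6 counts in the WT libraries. As CPM these were 0.668, 0.974 and 0.963 in knockout, against 0.216, 0.314 and 0.148 in WT. The groups did not overlap, and the rise was 1.93 ± 0.34 (adjusted p = 0.00154, edgeR), 3.80-fold, from 1.69 to 2.23 with any single library left out. Every deposited gene had at least 10 counts in at least 3 libraries, and Il1rl1 met this only through the knockout libraries. Its separation and p-value are therefore not free of that filter. The gene makes a membrane receptor and a soluble decoy from alternative 3′ ends, which whole-gene counts do not separate. The ratio of Il1rl1 to Il1rap counts was 0.0443, 0.0595 and 0.0583 in knockout and 0.0201, 0.0237 and 0.0128 in WT, 1.49 higher on the log2 scale (exact permutation p = 0.1, the smallest possible; adjusted 0.15).

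Mast cells and basophils carry ST2 as well. Of 8 listed markers 5 had counts, with sums of 5.5 to 7.94 CPM in knockout and 2.59 to 4.38 CPM in WT. Kit, the stem cell factor receptor, rose by 1.69 ± 0.23 (adjusted p = 0.000345, edgeR), while Cpa3, Ms4a2, Hdc and Mcpt8 were not called, and Fcer1a, Gata2 and Tpsb2 were not analysed here. Their part in the Il1rl1 result was not tested. Of 5 markers of type 2 innate lymphoid cells, which also carry ST2, Hes1 alone had counts, at 0.178 to 0.385 CPM in knockout and 0 to 0.254 CPM in WT. A count of that size is too low to compare.

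Il1r2, Il1r1, Il1rl1, Il18r1 and Il18rap lie side by side on mouse chromosome 1 in that order, all on the plus strand. Il1rl2, the receptor for IL-36, sits between Il1r1 and Il1rl1 in the GENCODE M21 annotation of GRCm38. At the Il1r2 end of the cluster, Il1r2, Il1r1 and Il1rl2 all lay lower (-0.30, -0.55 and -0.42), with Il1r1 alone called. At the Il18rap end, neighbours moved in opposite directions. Il1rl1 rose next to Il18r1, which fell, and Il18r1 is followed by Il18rap, which rose. Il1rl2 was at 5.79, 6.64 and 5.53 CPM in knockout and 7.21, 10.2 and 6.65 CPM in WT and was not called (-0.42 ± 0.17, adjusted p = 0.0708, edgeR). It passed without WT replicate 3 (-0.54, adjusted p = 0.0338). None of the 4 tested flanking genes was called. On the side of Il1r2, Map4k4, a kinase gene, was at 294 ± 4.62 CPM in knockout and 288 ± 16.7 CPM in WT (0.03 ± 0.06), and Rfx8 was below 1 CPM. On the side of Il18rap, Slc9a2 and Mfsd9 were at -0.13 ± 0.31 and -0.16 ± 0.20. Of the overlapping entries, Gm38070 inside Il1r1 rose by 1.38 ± 0.35 on the log2 scale (adjusted p = 0.00953, edgeR), opposite to its host, at a mean of 1.17 CPM in knockout and 0.443 CPM in WT.

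**Figure D3:**
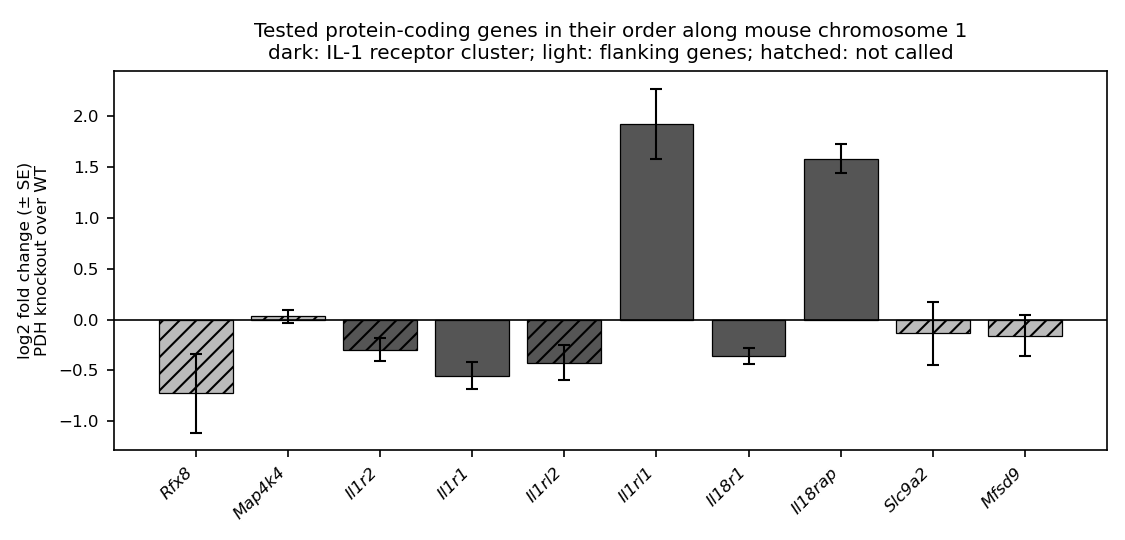
Log2 fold change of PDH knockout over WT ± SE (y axis) for the tested protein-coding genes in their order along mouse chromosome 1 (x axis, not to scale); dark bars are the receptor cluster, light bars the flanking genes and hatched bars genes not called. Il1rl1 and Il18rap stood at 1.93 and 1.58, on both sides of Il18r1 at -0.36.

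The sequence before the start of each of the 3 genes at the Il18rap end of the cluster is shown, since these neighbours moved in opposite directions. They come from RefSeq on GRCm38.p6, plus strand, 5′ to 3′. Il18rap is given from chr1:40515112-40515361 and the first listed Il1rl1 start from chr1:40429320-40429569, each the 250 bases before the start. For Il18r1, chr1:40465416-40465551 is the 136 bases between the last exon of Il1rl1 and its own first exon. Capitals mark matches to GGANNTTCC, a core of NF-κB sites, and TGATAA, a core of GATA sites, on either strand.
Il18rap: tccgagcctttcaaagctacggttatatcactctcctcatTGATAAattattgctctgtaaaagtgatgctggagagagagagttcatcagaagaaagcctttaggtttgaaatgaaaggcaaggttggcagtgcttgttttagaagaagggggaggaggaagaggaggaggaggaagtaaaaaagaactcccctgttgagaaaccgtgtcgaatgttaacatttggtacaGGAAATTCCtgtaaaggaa
Il1rl1: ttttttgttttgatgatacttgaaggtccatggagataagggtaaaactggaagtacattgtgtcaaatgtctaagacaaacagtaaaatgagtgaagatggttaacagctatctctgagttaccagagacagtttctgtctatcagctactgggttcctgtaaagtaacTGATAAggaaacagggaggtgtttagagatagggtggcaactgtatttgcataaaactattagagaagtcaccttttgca
Il18r1: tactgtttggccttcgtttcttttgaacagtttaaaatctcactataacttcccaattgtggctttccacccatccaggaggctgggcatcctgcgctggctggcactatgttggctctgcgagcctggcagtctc

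The Il18rap stretch held GGAAATTCC at 19 to 11 bases before the start and TGATAA at 210 to 205 bases before it. The Il1rl1 stretch held TGATAA at 80 to 75 bases before the start, and the Il18r1 stretch held neither motif. Among all 32851 promoter windows of 250 bases, 3.59% held GGANNTTCC and 7.94% held TGATAA. Over the family, 9 of 10 genes had a window, 14 windows in all because some genes have several starts. Il1r2 also held both motifs, so that GGANNTTCC was in 2 and TGATAA in 3 of the 14 windows. STAT (TTCNNNGAA) and T-box (AGGTGTGA) motifs were found in 3 and 1 of the 14 windows and in 7.02% and 1.12% of all windows. The motifs do not overlap in the stretches shown, they were chosen with the sequences in view, and a match is no more than a match of letters.

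Sigirr (ENSMUSG00000025494.9, chromosome 7) encodes an orphan receptor of the family that dampens IL-1 signalling in mouse Th17 cells. It was at 92.3, 86.0 and 93.3 CPM in knockout and 82.9, 83.3 and 76.5 CPM in WT. All knockout values lay above the WT values, but the change of 0.16 ± 0.06 missed the threshold (adjusted p = 0.0528, edgeR). It passed when scaled by library totals (adjusted p = 0.0351), without WT replicate 2 (adjusted p = 0.0448) and under 3 further settings.

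Of the adaptor and kinases of the shared signalling complex, Irak4 was called and Myd88 and Irak1 were not. Myd88 (ENSMUSG00000032508.9, chromosome 9), the adaptor, was at 81.7, 68.1 and 68.1 CPM in knockout and at 63.4, 72.4 and 57.1 CPM in WT, and the groups overlapped (0.18 ± 0.10, adjusted p = 0.185, edgeR). Without WT replicate 2 it passed at 0.27 (adjusted p = 0.0442, edgeR). Without the 3 libraries with raised B cell markers Myd88 was at 0.44. There knockout replicate 1, its highest library, stands for the whole knockout group. Irak1 (ENSMUSG00000031392.19, chromosome X), the kinase that IRAK4 activates, was at 132, 122 and 132 CPM in knockout and 121, 117 and 124 CPM in WT (0.09 ± 0.06, adjusted p = 0.231). Irak4 (ENSMUSG00000059883.17, chromosome 15), the kinase that starts the cascade, was at 11.6, 13.6 and 12.8 CPM in knockout and 15.6, 17.4 and 16.0 CPM in WT. It fell by 0.36 ± 0.10 on the log2 scale without overlap (adjusted p = 0.011, edgeR). When tested against a fold change of 1.2 it did not pass (adjusted p = 0.155, edgeR). Exons of Irak4 overlap those of Twf1 on the opposite strand, which fell as well (-0.30 ± 0.07, adjusted p = 0.00783, edgeR). Without the 3 libraries with raised B cell markers, which leaves 1 knockout library, the change in Twf1 shrank to -0.24. Exons of Myd88 overlap those of Acaa1a (-0.10 ± 0.07, adjusted p = 0.28). The library kit keeps strand, but no source used here says whether counting used it, so reads of these pairs may be shared.

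**Figure D4:**
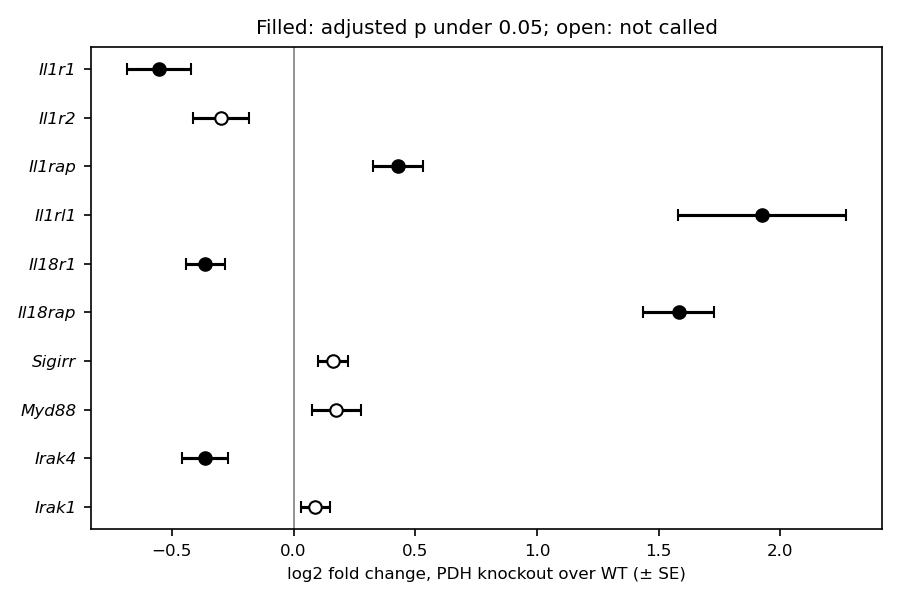
Log2 fold change of PDH knockout over WT ± SE (x axis) for the 10 family genes (y axis), ordered from IL-1 receptors to signalling proteins; filled points have an adjusted p under 0.05 and open points were not called. Il1rl1 and Il18rap stand at 1.93 and 1.58, and the other genes lie between -0.55 and 0.43.

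Levels of different genes were compared per kb of annotated exon. In knockout the order was Sigirr (29.8 CPM per kb), Myd88 (28.2), Irak1 (27.2), Il1r2 (7.63), Il18rap (3.39), Il18r1 (3.27), Il1r1 (2.58), Irak4 (2.53), Il1rap (1.41) and Il1rl1 (0.126). In WT it was Sigirr (26.6 CPM per kb), Irak1 (25.6), Myd88 (25.0), Il1r2 (9.38), Il18r1 (4.20), Il1r1 (3.79), Irak4 (3.25), Il18rap (1.13), Il1rap (1.05) and Il1rl1 (0.0328). In both groups the values of Sigirr, Myd88 and Irak1 overlapped from each to the next along this order, and none of them overlapped Il1r2. In knockout, Il18rap overlapped Il18r1, Il18r1 overlapped Il1r1, and Il1r1 overlapped Irak4, which did not overlap Il1rap. In WT, Il18rap overlapped Il1rap. Per length, Il18rap stood at place 5 of the family in knockout and at place 8 in WT, and the decoy Il1r2 stood above the signalling Il1r1 in both groups.

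The other genes of the pathway were counted in 7 lists. Over the lists 26 of 84 tested genes were higher and 20 lower, with a median log2 fold change of 0.01, beside 23.1% higher and 24.5% lower over all tested genes. The counts of the single lists below are small and are to be read against those shares, and none is called particular to its list. Of 11 ligands and soluble antagonists, 3 were tested and the others, Il1b, Il18 and Il33 among them, were not analysed here. Il1a, the gene of IL-1α, was at 1.53, 2.35 and 1.79 CPM in knockout and 0.216, 1.205 and 0.346 CPM in WT (1.67 ± 0.57, adjusted p = 0.0442, edgeR). Leaving out any single library but WT replicate 2 ended the call, with adjusted p between 0.0692 and 0.134. Il1rn, the IL-1 receptor antagonist, and Il18bp, which binds IL-18, were at 0.26 ± 0.29 and -0.02 ± 0.17 and were not called. Myeloid markers, from cells that make much Il1rn and Il1r2, summed to 2.27 to 5.5 CPM in knockout and 6.66 to 19.3 CPM in WT. Of 9 myeloid markers 5 had counts and 4 were tested, of which 0 were called, and Cd14, Fcgr1, S100a8 and S100a9 were not analysed here.

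Of 7 tested other receptors that use MyD88, 3 rose and 0 fell, beside 23.1% and 24.5% of all tested genes. These were Toll-like receptors at low levels. Tlr9, a DNA sensor, was at 1.01, 1.37 and 2.35 CPM in knockout and 0.0811, 0.236 and 0.173 CPM in WT (3.24 ± 0.44, adjusted p = 0.000354, edgeR). Like Il1rl1, it met the minimum of 10 counts in 3 libraries only through the knockout libraries. Tlr7, an RNA sensor, was at 2.70, 3.67 and 4.36 CPM in knockout and 1.86, 2.67 and 1.53 CPM in WT (0.82 ± 0.25). Tlr12 was at 0.396, 0.773 and 1.02 CPM in knockout and 0.324, 0.262 and 0.222 CPM in WT (1.42 ± 0.39). B cells carry Tlr9 and Tlr7, and in the knockout libraries all 3 genes ran in the order of the summed B cell markers, while the part of B cells was not tested. Without the 3 libraries with raised B cell markers, which leaves 1 knockout library, the changes in Tlr7 and Tlr12 shrank to 0.67 and 0.54. With 1 knockout library these values cannot say which genes depend on B cells. Tlr9 lay between 2.84 and 3.58 in the 17 alternatives that tested it. Tlr7 lost its call without knockout replicate 2 or 3 or WT replicate 1 or 3 (adjusted p from 0.0619 to 0.101, edgeR). Tlr12 lost its call without knockout replicate 3 (adjusted p = 0.0682, edgeR).

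In the list of TIR adaptors and of genes between MyD88 and the kinase TAK1, 5 of 19 tested genes rose and 7 fell. The median was -0.02, and these counts stand beside 23.1% higher and 24.5% lower over all tested genes. Tirap, the adaptor that bridges some Toll-like receptors to MyD88, was at 3.86 ± 0.707 CPM in knockout and 8.73 ± 0.509 CPM in WT (-1.18 ± 0.15, adjusted p = 0.000311). Ticam1, which encodes the adaptor TRIF, fell by 0.67 and Ube2v1, part of the enzyme that builds K63-linked ubiquitin chains, by 0.48 on the log2 scale. Tab2, which links those chains to TAK1, rose by 0.48 ± 0.06 (adjusted p = 0.000301). The IKK and MAP kinase list of 15 genes includes the transcription factors Jun and Atf2. In that list 2 rose and 4 fell (2 fell without WT replicate 1), beside the same shares. Jun, an AP-1 subunit, was at 62.2 ± 7.97 CPM in knockout and 32.9 ± 2.20 CPM in WT (0.92 ± 0.10, adjusted p = 9.3e-05), and Map2k7, which activates JNK, rose by 0.47. Map2k3, which activates p38, and Mapkapk2, a p38 substrate, fell by 0.55 and 0.41 on the log2 scale.

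Among NF-κB subunits and feedback genes 8 of 17 rose and 3 fell, with a median of 0.18, beside 23.1% higher and 24.5% lower over all tested genes. Nfkbia, the inhibitor IκBα, was at 364 ± 32.8 CPM in knockout and 169 ± 25.1 CPM in WT (1.11 ± 0.11, adjusted p = 0.000116). Tnfaip3, the feedback regulator A20, was at 151 ± 11.2 CPM in knockout and 77.4 ± 3.04 CPM in WT (0.97 ± 0.07, adjusted p = 1.72e-05). Nfkb2 and Tnip1 rose by 0.70 and 0.55. These genes answer to many receptors, among them the T cell receptor and TNF receptors, and the counts do not say which.

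Of 7 tested inflammasome genes 2 rose and 2 fell, near the 23.1% and 24.5% of all tested genes. Casp1, the protease that matures IL-1β and IL-18, was at 16.6, 19.3 and 15.1 CPM in knockout and 2.62, 4.95 and 3.09 CPM in WT, far apart (2.26 ± 0.23, adjusted p = 0.000179, edgeR). Casp4, the mouse caspase-11, rose by 0.64. Pycard, the adaptor ASC, fell by 0.76 and Gsdmd, the pore-forming gasdermin D, by 0.27 on the log2 scale. The Gsdmd call was lost without knockout replicate 1, WT replicate 1 or WT replicate 3 (adjusted p from 0.1 to 0.109), and with upper-quartile scaling or library totals.

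Of 16 regulators of these receptors 5 rose and 4 fell, beside 23.1% and 24.5% of all tested genes, and 2 or 3 rose when any single library other than WT replicate 3 was left out. Through Il12rb2 and Stat4, IL-12 raises IL-18 receptor expression in Th1 cells. Il12rb2 was at 20.2 ± 2.19 CPM in knockout and 123 ± 38.3 CPM in WT (-2.61 ± 0.29). Stat4 was at 36.8 ± 7.31 CPM in knockout and 115 ± 12.3 CPM in WT (-1.65 ± 0.16). Of the IL-18 receptor chains, Il18r1 was at -0.36 and Il18rap at 1.58 on the log2 scale. The part of Il12rb2 and Stat4 in either change was not tested. Stat5a, a transducer of IL-2 signals, rose by 0.83. Prdm1, which encodes Blimp-1, was at 0.454 ± 0.149 CPM in knockout and 0.0949 ± 0.0123 CPM in WT (2.22 ± 0.42, adjusted p = 0.0021, edgeR). Prdm1 too met the minimum of 10 counts in 3 libraries only through the knockout libraries.

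**Figure D5:**
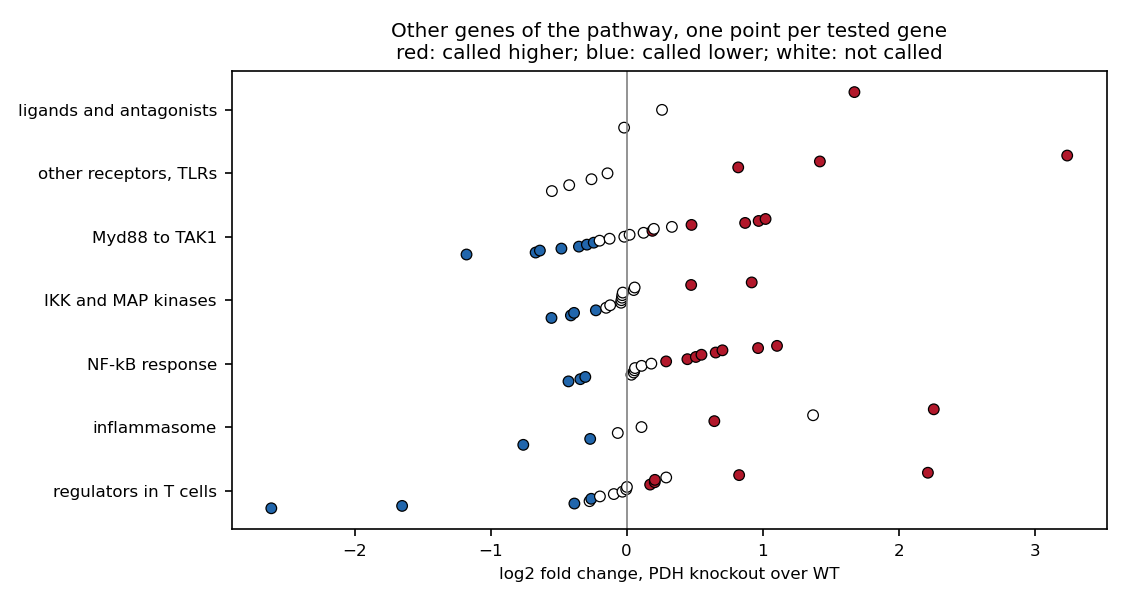
Log2 fold change of PDH knockout over WT (x axis) of each tested gene in the 7 pathway lists (y axis); red points were called higher, blue points lower and white points not called. In the NF-κB list 8 genes were called higher and 3 lower. In the list labelled Myd88 to TAK1, which also holds other TIR adaptors, 5 were higher and 7 lower.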

How the data were processed

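Messenger RNA of 3 PDH knockout and 3 WT Th17 cultures was read with a stranded kit, per the labels' protocols. The authors deposited 1 table of expected counts, estimated read counts per gene that are already whole numbers, made with Salmon, DESeq2 or DESeq in roles that the submitters' processing notes leave out. Build and annotation: not given in the sources used here. Each of the 15452 rows held at least 10 counts in at least 3 libraries. IDs without version were matched to GENCODE M21 symbols (15138 matched, 314 did not). The fit used R 4.3.3 with edgeR 4.0.16 (limma 3.58.1 beneath it). After filterByExpr, which removed 91 genes, and TMM, quasi-likelihood models with robust dispersion had the 2 genotypes and no covariate, with Benjamini-Hochberg adjustment over all 15361 genes. SE is the log2 fold change divided by the root of F. Levels per kb use the M21 union of exons. Markers were summed as CPM of library totals. The sum of 1 marker list and 1 of 5 motifs searched are not reported here. Ratios used 0.5 added counts and a two-sided exact permutation test.

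The members, the pathway and marker lists and the alternatives were chosen with earlier results of these data known. Named genes are all members, up to 4 called genes of each pathway list by p, the tested neighbours of the receptor cluster and 3 PDH genes. Irak4 and Myd88 overlap partners, Il1rn, Il18bp, Gm38070, Kit and the other named markers were chosen after their values were seen. Alternatives were 3 other scalings, DESeq2 1.42.0, limma-voom, 2 other filters, no robust dispersion, a replicate-number block, a test against 1.2-fold, single libraries left out, the 3 libraries with raised B cell markers left out, and removal of 27 entries that exceed both other knockout libraries over 5 times in knockout replicate 2. Replicates of a group differed far beyond sampling noise (chi-square per degree of freedom at least 24.1). Knockout replicate 2 stood furthest off, at 154 and 143 against knockout replicates 1 and 3, while no other pair within a group exceeded 30.1.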

Additional observations from a re-analysis of the deposited data

How the results depend on the processing

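Over 179 refits of the 10 family genes, 162 kept direction and side of the threshold, 5 calls were lost, 12 were gained and 0 changed direction. Il18rap kept its call in all 18 alternatives and Il1rl1 in the 17 that tested it; a filter of at least 50 counts removes Il1rl1. Against a fold of 1.2, 3981 genes, 1 family gene lower (Il1r1) and 10 pathway genes lower were called, as a stricter test must give fewer. With upper-quartile factors 6 family genes were higher, the genes lower were 2 of the IKK and MAP kinase, 1 of the NF-κB and 1 of the inflammasome lists, and of all called genes 60.0% were higher, against 48.5% with TMM. With each library left out, 5524 to 6961 genes were called, 3 to 5 family genes were higher (5 without WT replicate 2) and 3 to 4 lower, and 20 to 25 pathway genes were higher and 16 to 19 lower. The ratio differences ran from 0.07 to 0.55 for Il1r2/Il1r1, 1.78 to 2.05 for Il18rap/Il18r1 and 1.25 to 1.66 for Il1rl1/Il1rap. Uncalled genes changed sign without the 3 libraries with raised B cell markers (Map4k4 -0.027, Slc9a2 0.47, Acaa1a 0.046) and with single libraries left out (Map4k4 from -0.00379 without WT replicate 2 to 0.078, Slc9a2 from -0.52 to 0.012 and 0.021 without knockout replicate 2 or 3); the cause was not tested.

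No pairing of the libraries by replicate number was seen: same-numbered deviations correlated at -0.10, 0.09 and -0.26. Only replicate 2 of each group correlated best with its own number. Deviations within a group of 3 are tied to each other, so these values cannot exclude a pairing. With the replicate number as a block 7218 genes were called, 3 family genes higher and 4 lower; Il1r2 was gained (-0.31, adjusted p = 0.0477), and of the other named genes Il1rl2.

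Il1rl1 rests on 6 to 34 counts a library, and 3 libraries a group limit the permutation tests to p = 0.1.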
